A study of Mus musculus with 2 samples.

Results

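The proteasome subunit genes described here are the 48 genes whose mouse symbol begins with Psm, followed by a letter from a to g and a number, out of 34745 genes in the deposited count table. They encode the α and β rings of the 20S core, the ATPases, other base subunits and lid of the 19S regulatory particle, the PA28 and PA200 activators, the immunoproteasome and thymoproteasome catalytic subunits, the inhibitor PI31 and 7 assembly chaperones. RNA came from the gastrocnemius, a fast hindlimb muscle, of 8-week-old C57BL/6 mice, with 1 library from animals labelled flox/flox for Cipc, in which loxP sites flank the gene, and 1 from animals labelled scKO. Cipc encodes a repressor of the circadian factor CLOCK. The series title describes removal of Cipc in satellite cells, the resident stem cells of muscle, and scKO was read as that genotype; the Cre driver is not named in the labels. The title also speaks of mdx mice, which lack dystrophin, whereas the labels of these libraries mention neither mdx nor injury, and it is not given whether several animals were pooled into a library. With 1 library per genotype there was no replicate spread to test against, so no p-value was computed, and the intervals below are exact 95% intervals that cover counting error only.

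The 20S core is a barrel of 4 stacked rings in which β subunits carry the peptide-cutting sites and α subunits form the gate. The 19S particle binds ubiquitin-tagged proteins, removes the ubiquitin and threads the substrate into the barrel with a ring of ATPases. In skeletal muscle this machinery degrades much of the myofibrillar protein during wasting. In many cells the factor NRF1, encoded by Nfe2l1, drives subunit genes together through antioxidant response elements, and interferon replaces the 3 catalytic β subunits with the immunoproteasome forms.

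The libraries held 14727219 counts (flox/flox) and 13842100 counts (scKO), so that 1 count was worth 0.0679 and 0.0722 CPM (counts scaled to the library total). Cipc itself had 658 (flox/flox) and 111 (scKO) counts, a log2 ratio of -2.51 (-2.82 to -2.22). All 7 myofibre markers were detected, with a summed 123235 (flox/flox) and 116627 CPM (scKO), 1 of them with an interval above 0 and 6 below. Of 14 leukocyte markers, 4 (Cd3e, Cd4, Cd8a and S100a8) had 0 counts in both libraries, and the list summed to 55.8 and 48.7 CPM, with 39 and 34 counts of Ptprc, the gene of the pan-leukocyte antigen CD45. Of the 7 leukocyte markers with at least 20 counts, 1 had an interval below 0, Cd74 (352 and 234 counts, -0.54, -0.78 to -0.30), and none above. The 6 endothelial markers summed to 225 and 271 CPM (Pecam1 651 and 700 counts; 3 above, none below), the 4 fibro-adipogenic markers to 345 and 311 CPM (3 below, none above) and the 4 satellite cell markers to 23.8 and 26 CPM (Pax7 69 and 39 counts; 1 below, none above). Pax7 had a log2 ratio of -0.76, while those of Myf5 (0.60), Vcam1 (0.33) and Cdh15 (0.18) were positive with intervals that included 0. Of all genes with at least 20 counts, 12.8% had an interval above 0 and 12.3% below. The part of the cell type markers in the subunit ratios was not tested, and in bulk muscle fewer cells of a type and less RNA per cell cannot be told apart.

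Promoters were read for what the subunit genes share upstream. RefSeq promoters of GRCm38.p6, each 250 bases before to 50 bases after a transcription start, were matched by symbol to 40 of the 48 genes (43 promoters). The stretches below hold the antioxidant response element core, searched as TGACNNNGC, or the E-box, searched as CACGTG, on either strand. They are shown because the first is the element through which NRF1 acts and the second is the sequence bound by CLOCK and BMAL1, the pair that CIPC represses. Each is written 5′ to 3′ on the strand of its gene, with the matches in capitals.
Psmb5 (chr14:54618004-54618073, minus strand): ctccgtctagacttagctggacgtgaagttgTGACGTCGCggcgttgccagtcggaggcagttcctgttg
Psmb6 (chr11:70525287-70525356, plus strand): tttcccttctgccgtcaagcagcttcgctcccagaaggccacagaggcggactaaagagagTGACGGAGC
Psmd9 (chr5:123228118-123228187, plus strand): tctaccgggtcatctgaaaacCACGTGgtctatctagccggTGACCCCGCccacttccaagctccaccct
Psma4 (chr9:54950687-54950756, plus strand): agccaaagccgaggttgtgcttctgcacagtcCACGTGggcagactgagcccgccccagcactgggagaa
Psme3 (chr11:101316137-101316206, plus strand): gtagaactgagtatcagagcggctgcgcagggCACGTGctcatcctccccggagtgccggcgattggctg
Psmb10 (chr8:105938471-105938540, minus strand): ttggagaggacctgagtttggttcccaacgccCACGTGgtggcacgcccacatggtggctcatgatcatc

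The antioxidant core began 47 bases before the start of Psmb5 and 9 bases before that of Psmb6, both catalytic β subunits, and 31 bases before that of Psmd9, a base chaperone. Its matches in Psme4, Psmc6 and Psmd12, not printed, began 7, 227 and 247 bases before the start. Psmd9 was the only subunit gene with a match to both motifs, its E-box lying 51 bases before the start. The E-boxes of Psma4 (140 bases), Psmb10 (116 bases) and Psme3 (44 bases) stood at different distances. The antioxidant core was found in 6 member promoters (Psmb5, Psmb6, Psmc6, Psmd12, Psmd9 and Psme4), 14%, against 14.4% of the promoters of genes with at least 20 counts and 12.4% of all 32851 promoters. The E-box was found in 4, or 9.30%, against 9.89% and 7.15%. The box bound by NF-Y, searched as CCAAT, was found in 32.6%, against 37.1% and 37.4%, and the GC box, searched as GGGCGG, in 55.8%, against 61.8% and 35.7%. The core of the interferon element, searched as AAANNGAAA, was found in 14% (6 promoters), against 7.62% and 10.6%. Its matches lay in promoters of Psmb3, Psmd4, Psmd9, Psmd11, Psmg4 and Psme1, the last a gene of the interferon-induced PA28. None lay in a promoter read for an immunoproteasome catalytic gene, and those of Psmb9 and Psmb10 were among the promoters read. Both strands were searched, and matches of different motifs overlapped once. A match is a run of letters and not a measured site, and an absent match says only that these letters are not in the window.

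**Figure D1:**
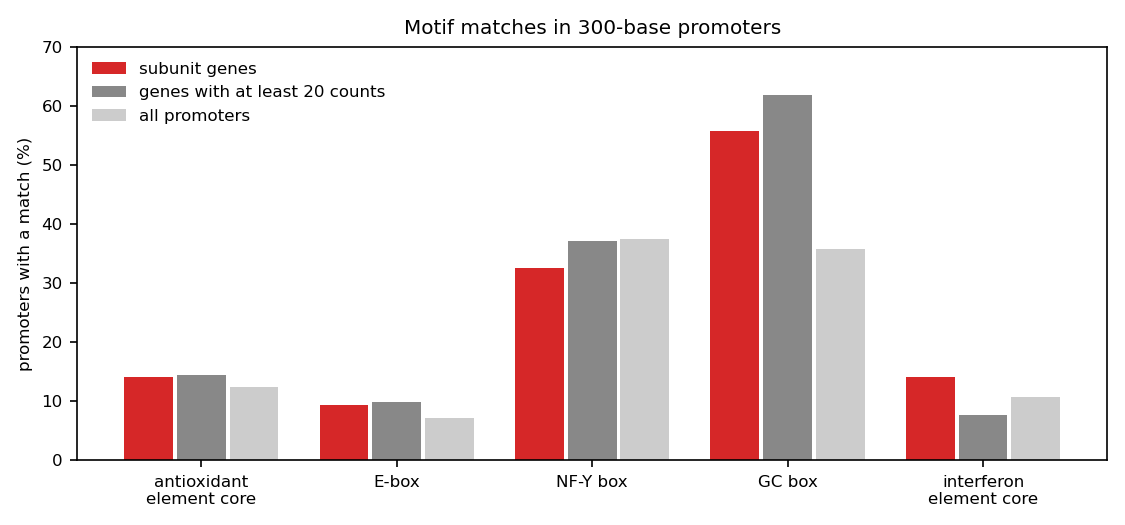
Share of promoters (%, vertical axis) with at least 1 match to each of 5 motifs on either strand, for subunit genes (red, 43 promoters), genes with at least 20 summed counts (dark grey, 12402) and all promoters (light grey, 32851). The subunit bar is lower than the dark bar for 4 motifs and stands at 14% against 7.62% for the interferon element core.

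As a class, the subunit genes stood at nearly the same level in both muscles. Together they took 44585 counts, 0.303% of the library (0.30% to 0.306%), in flox/flox and 43950 counts, 0.318% (0.315% to 0.320%), in scKO. Of the 48, 46 had a summed count of at least 20, the minimum used, and the other two, Psma8 and Psmb11, had none in either library. After scaling of the libraries by TMM, the median log2 ratio, always given as scKO over flox/flox, was 0.026 over the 46 genes (quartiles -0.028 and 0.13), beside 0.0021 (quartiles -0.18 and 0.17) over all 12662 genes with that depth. The summed counts of the subunit genes had a log2 ratio of 0.030 (0.011 to 0.049), a small excess in scKO with an interval above 0. That excess was not even across the class. The 31 constitutive genes of the core and 19S particle summed to 0.015 (-0.0063 to 0.035). The 4 activator genes, with most counts from Psme4, summed to 0.14 (0.085 to 0.19). Single ratios ran from -0.45 for Psmd10 to 0.46 for Psmg3, and 27 were positive and 19 negative.

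No subunit gene was at least 2-fold apart with an interval that excluded no change, against 3.40% of all genes with at least 20 counts. The interval lay above 0 for 8 of 46 genes (17.4%; 12.8% of all genes) and below 0 for 5 (10.9%; 12.3% of all genes), and it included 0 for 33. The genes above were Psma2, Psma3, Psma5, Psmb5, Psmc3, Psmc5, Psmd3 and Psme4, and those below were Psmc1, Psmd4, Psmd10, Psmd12 and Psmf1. Genes above made up 61.5% of these 13 under TMM, where 1620 of all genes lay above and 1562 below. When the libraries were scaled by their total counts, they made up 76.9% (10 above, 3 below). That scaling also moved the median of all genes, from 0.0021 to 0.040. Without the genes that have a copy of at least 95% identity or share at least 5% of their exon bases with another gene, 4 lay above and 4 below. The summed counts of the remaining genes had a log2 ratio of 0.018 (-0.0063 to 0.042). Both shares of subunit genes lie near the background, so their counts are not read as a result about these genes.

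**Figure D2:**
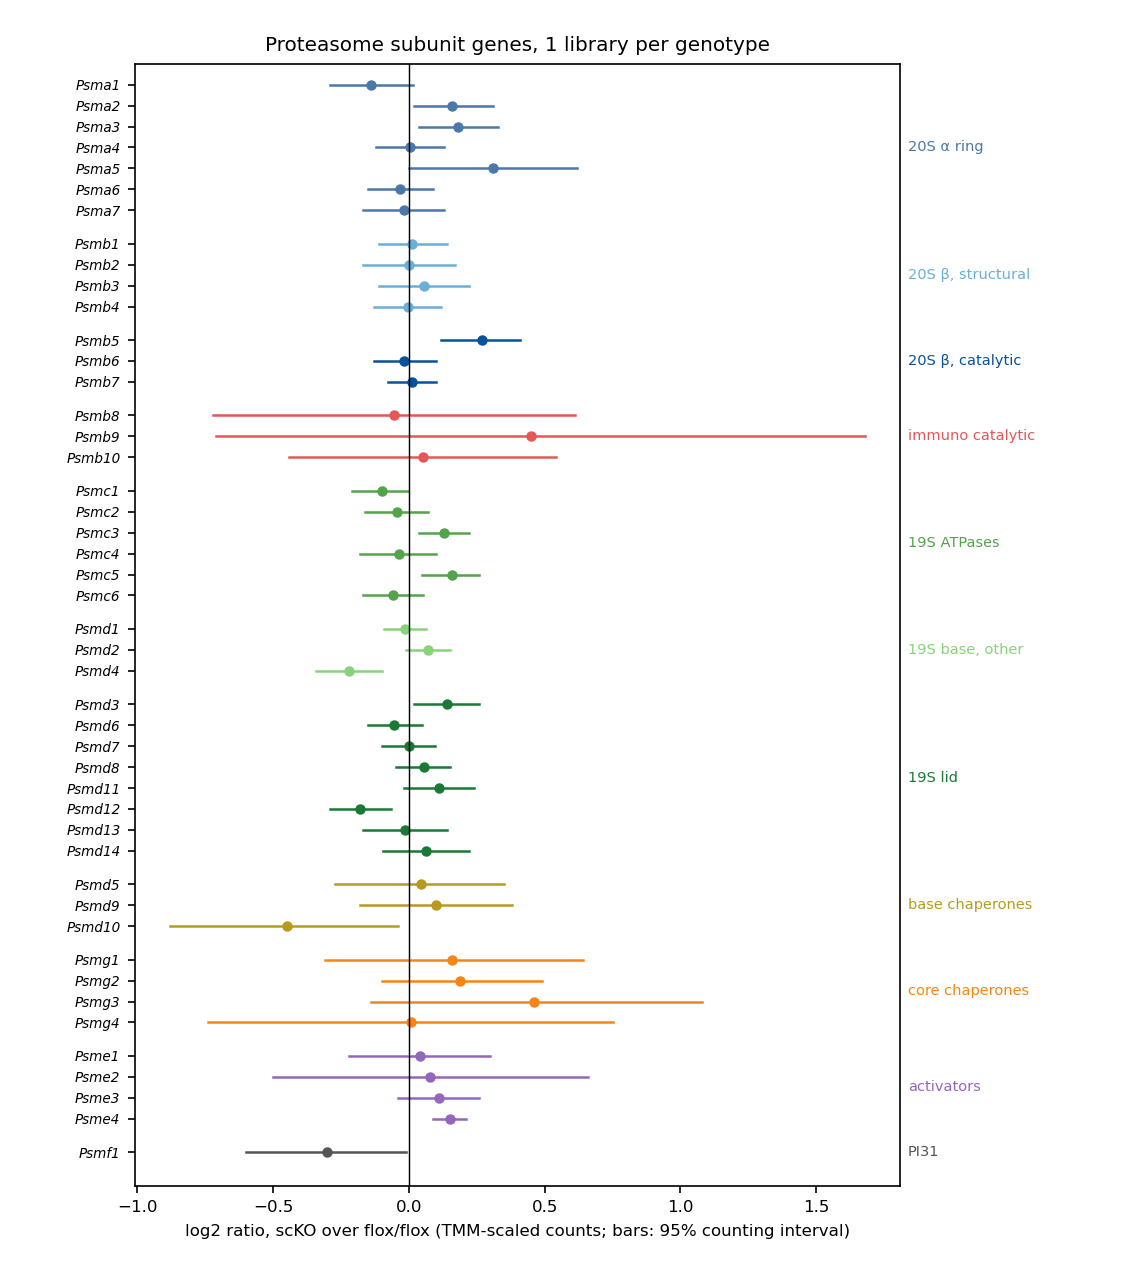
Log2 ratio of scKO over flox/flox (horizontal axis, TMM-scaled counts) of the 46 subunit genes with at least 20 summed counts, grouped and coloured by role; bars are 95% counting intervals and each genotype is 1 library. The points run from -0.45 (Psmd10) to 0.46 (Psmg3), and the widest bars belong to genes with few counts, such as Psmb9.

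Ratios of the subunit genes lay close together. The median absolute log2 ratio was 0.068, beside 0.17 over all genes, and 40 of 46 subunit genes (87.0%) lay within 0.25 of 0 on the log2 scale, beside 63.4% of all genes. Depth differs between these sets, since 32 of the subunit genes had at least 1000 summed counts. At that depth the median absolute ratio was 0.055 over the 32 genes and 0.1 over 2861 genes, and 31 of 32 (96.9%) against 85.4% lay within 0.25. Among these deep genes 10 subunit genes (31.2%) had an interval on either side of 0, 7 above and 3 below, against 43.1% of all. Genes of 1 complex are not independent of each other, and these shares are a description of 2 libraries.

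**Figure D3:**
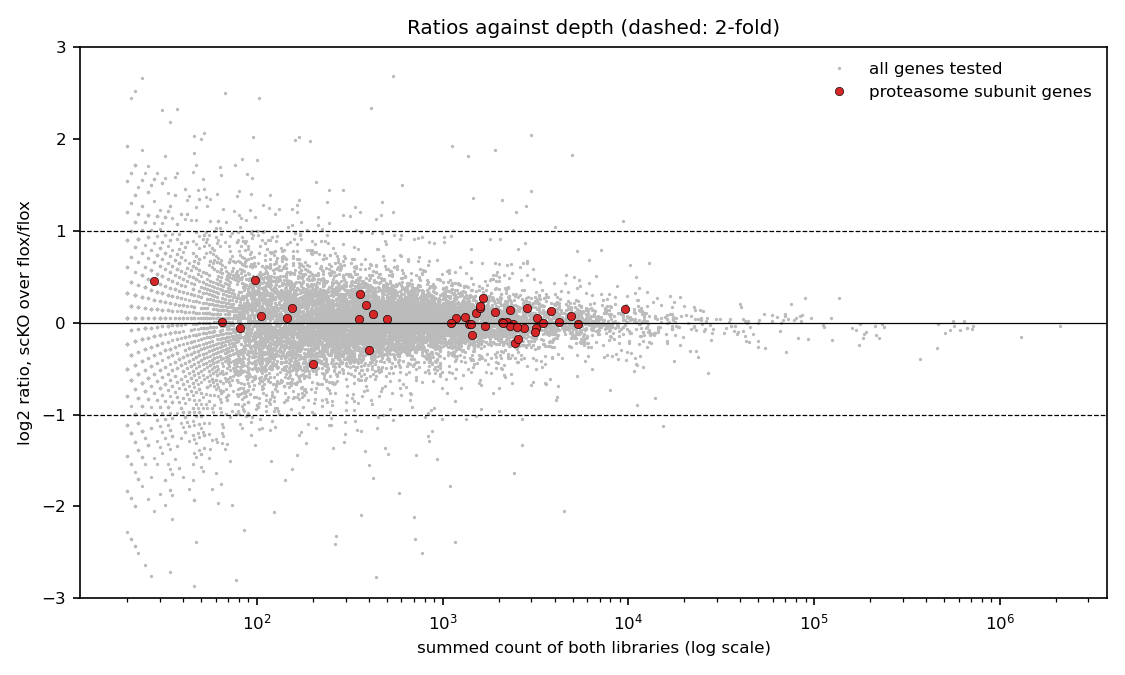
Log2 ratio of scKO over flox/flox (vertical axis) against the summed count of both libraries (horizontal axis, log scale) for all 12662 genes with at least 20 counts (grey) and 46 subunit genes (red), with dashed lines at 2-fold; 30 genes lie beyond the plotted range. The 32 subunit genes with at least 1000 counts have a median absolute ratio of 0.055, and those with fewer counts spread further from 0.

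The α ring forms the outer gate of the core and docks the 19S particle and the activators. Its 7 somatic genes had a median log2 ratio of 0.0057, with single ratios from -0.14 to 0.31. Of their intervals, 3 lay above 0 and none below, beside 12.8% and 12.3% of all genes. Their summed counts were 5479 in flox/flox and 5416 in scKO (0.034, -0.020 to 0.089). Psma2 had 759 (flox/flox) and 821 (scKO) counts (0.16, 0.020 to 0.31), and Psma3 had 761 and 833 (0.18, 0.038 to 0.33). Psma5 had the fewest counts of the ring, 163 and 195, and the ratio with the widest interval (0.31, 0.0022 to 0.62). That lower bound fell below 0 when DESeq2 size factors replaced TMM. The other genes of the ring, Psma1, Psma4, Psma6 and Psma7, had intervals that included 0, from -0.14 for Psma1 (766 and 672 counts) to 0.0057 for Psma4 (1128 and 1093 counts). Psma8, the germline α subunit of the spermatoproteasome, had 0 counts in both libraries, which allows up to 0.204 (flox/flox) and 0.217 CPM (scKO).

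All 3 α genes above 0 have processed pseudogenes that resemble them, and how the authors' counting treated reads that match several genes is not given in the sources used here. Psma5 matched the pseudogene Gm8394 at 98.6% over 952 bases, and Gm8394 itself carried 124 counts (flox/flox) and 115 (scKO), beside the 163 and 195 of Psma5. How reads were divided between these 2 genes was not tested, and the Psma5 ratio is uncertain to that extent. Psma3 matched Gm13835 at 100% over 665 of 2846 bases and Psma2 matched Gm6474 at 94.8% over 699 of 2911 bases, and neither of these copies is a row of the count table.

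The structural β subunits close the inner rings and carry no active site. Psmb1, Psmb2, Psmb3 and Psmb4 were the most even group, with log2 ratios from -0.0035 to 0.054 and all 4 intervals including 0. Psmb1 had 1059 (flox/flox) and 1030 (scKO) counts, and Psmb4 had 1076 and 1036. Psmb2 had 564 and 544 counts and Psmb3 587 and 588. Psmb3 has 7 annotated copies of at least 90% identity, the most of any member at that identity, of which Gm4950 was in the table with 11 and 15 counts.

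The constitutive catalytic subunits are Psmb5, with chymotrypsin-like activity, Psmb6, with caspase-like activity, and Psmb7, with trypsin-like activity. Psmb5, which lies on chr14:54614119-54618022 (GRCm38, minus strand), had 759 (flox/flox) and 881 (scKO) counts, a ratio of 1.2-fold (log2 0.27, 0.12 to 0.41). Psmb6 had 1216 and 1161 counts (-0.016, -0.13 to 0.10) and Psmb7 had 2140 and 2083 (0.012, -0.076 to 0.1). Of the catalytic genes, then, Psmb5 alone was higher in scKO beyond counting error, though a difference between Psmb5 and its partners was not tested. Psmb5 shares 12.1% of its exon bases with Mir686, and the pseudogene Gm3375, not a row of the table, matches it at 98.9% over 796 of 899 bases. Both printed promoters, of Psmb5 and Psmb6, hold the antioxidant core near the start, beside log2 ratios of 0.27 and -0.016.

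The immunoproteasome subunits, which replace the constitutive sites under interferon and are abundant in leukocytes, were scarce in both muscles. Psmb8 had 42 (flox/flox) and 39 (scKO) counts (-0.055, -0.72 to 0.61). Psmb9 had 12 and 16 counts (0.45, -0.71 to 1.68), and Psmb10 had 73 in each (0.051, -0.44 to 0.54). All 3 intervals included 0. On deposited FPKM, a scale per length of gene, the immuno forms summed to 3.77% of the constitutive catalytic forms in flox/flox and 3.56% in scKO. Each immuno form was set against the constitutive form that it replaces, within the library, which removes library scaling. The log2 ratio between genotypes of Psmb8 over Psmb5 was -0.32 (-1.01 to 0.36), of Psmb9 over Psmb6 0.48 (-0.70 to 1.70) and of Psmb10 over Psmb7 0.039 (-0.46 to 0.54). Summed over the 3 pairs it was 0.0078 (-0.36 to 0.38), so a shift of the catalytic makeup was not detectable at this depth.

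Psmb8 (chr17:34197721-34201454) and Psmb9 (chr17:34181987-34187764) are neighbours in the major histocompatibility complex. Psmb9 shares 5.79% of its exon bases with Tap1 and Psmb8 shares 14.7% with Gm20496, both on the opposite strand, so reads from these shared bases cannot be assigned without strand. Psmb10 lies apart from them on chr8:105935735-105938444. Psmb11, the catalytic subunit of thymic cortical epithelium, is the neighbour of Psmb5 on chr14 (54621433-54629556) and had 0 counts in both libraries.

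The 6 ATPases of the 19S base unfold the substrate and open the α gate. They had a median log2 ratio of -0.041, with single ratios from -0.10 to 0.16. Of their intervals, 2 lay above 0 and 1 below, beside 12.8% and 12.3% of all genes. Among all genes with at least 1000 counts, 43.1% lay on either side. Summed counts of the ATPases were 8488 in flox/flox and 8288 in scKO (0.017, -0.027 to 0.061). Psmc3 had 1861 (flox/flox) and 1965 (scKO) counts (0.13, 0.037 to 0.22), and Psmc5 had 1375 and 1479 (0.16, 0.049 to 0.26). Psmc1 had 1658 and 1488 counts (-0.10, -0.21 to -0.0031), and its interval included 0 when the libraries were scaled by total counts. Psmc1 matches the pseudogene AC110212.1, not a row of the count table, at 95.6% over 1306 of 1591 bases. Psmc3 shares 8.25% of its exon bases with Slc39a13 on the opposite strand. Psmc2, Psmc4 and Psmc6 had ratios from -0.057 to -0.036, all with intervals including 0. ATPases that sit in 1 ring in equal number thus had ratios on both sides of 0, the largest of 1.11-fold, for Psmc5.

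The other base subunits are the scaffolds Psmd1 and Psmd2 and the ubiquitin receptor Psmd4. Psmd1 had 2732 (flox/flox) and 2612 (scKO) counts (-0.014, -0.092 to 0.064), and Psmd2 had 2450 and 2484 (0.071, -0.010 to 0.15). Psmd4 was lower in scKO, with 1335 and 1106 counts, 1.16-fold (-0.22, -0.34 to -0.10), and has no near copy and no exon shared with another gene. Adrm1, the base's other ubiquitin receptor, had 702 and 711 counts (0.069, -0.083 to 0.22), on the other side of 0 with an interval that included it.

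The lid removes ubiquitin through Psmd14, its metalloprotease, held by the structural subunits around it. Its 8 genes had a median log2 ratio of 0.027, with single ratios from -0.18 to 0.14. Of their intervals, 1 lay above 0 and 1 below, beside 12.8% and 12.3% of all genes, and 6 included 0. Psmd3 had 1122 (flox/flox) and 1192 (scKO) counts (0.14, 0.020 to 0.26), and Psmd12 had 1370 and 1169 (-0.18, -0.29 to -0.064). Psmd14 itself had 656 and 662 counts (0.064, -0.094 to 0.22). Psmd11, a lid subunit that is limiting for assembly in some cells, had 939 and 980 counts (0.11, -0.018 to 0.24), and its interval lay above 0 only with total-count scaling, as did that of Psmd2. Psmd7, the partner of Psmd14, was the most even of the group with 1766 and 1704 counts (-0.00041, -0.097 to 0.096). Sem1, the small lid subunit that the naming rule does not take in, had 453 and 545 counts (0.32, 0.14 to 0.50), a higher ratio than any of the 8 lid genes.

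Over the whole constitutive 26S particle, 14 core and 17 regulatory genes, the median log2 ratio was -0.00041, with single ratios from -0.22 to 0.31. Summed counts were 37722 in flox/flox and 36776 in scKO, a log2 ratio of 0.015 (-0.0063 to 0.035). Taken apart, the 20S core summed to a ratio of 0.035 (-0.00018 to 0.071) and the 19S particle to 0.0036 (-0.022 to 0.029).

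Assembly chaperones build the particle and leave it. They had fewer counts than most constitutive subunits: the 7 genes summed to 833 counts in flox/flox and 842 in scKO. On deposited FPKM, Psmg2 (11.7 in flox/flox, 13.8 in scKO) lay within the constitutive range, above Psma5 (7.19 and 9.15). The other chaperones lay below that range. The core chaperones Psmg1 (74 and 80 counts), Psmg2 (183 and 202), Psmg3 (42 and 56) and Psmg4 (33 and 32) had log2 ratios from 0.0067 to 0.46, and all 4 intervals included 0. Psmg3, with the highest ratio of all 46 genes, had an interval from -0.14 to 1.08, and 9.68% of its exon bases are shared with Gm26938. Pomp, which completes the β rings, had 638 and 581 counts (-0.084, -0.25 to 0.081).

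Of the base chaperones, Psmd10 (gankyrin) had the lowest ratio of all 46 genes. Its counts were 118 (flox/flox) and 83 (scKO), 1.37-fold lower (-0.45, -0.88 to -0.039), and lies on chrX:140948429-140956728 with no near copy. Psmd5 had 177 and 176 counts (0.043, -0.27 to 0.35). Psmd9 had 206 and 213 (0.099, -0.18 to 0.38) and shares 25.5% of its exon bases with Gm26745 on the opposite strand. The base chaperones thus did not lie on 1 side of 0.

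The activators open the core without ubiquitin. PA200, encoded by Psme4 (chr11:30771726-30880361), was the subunit gene with the most counts, 4633 in flox/flox and 4954 in scKO (0.15, 0.090 to 0.21), and it has no near copy and no shared exon. Set against the 6 ATPases in its own library, Psme4 was higher in scKO by 0.13 on the log2 scale (0.058 to 0.20). That value reuses the same Psme4 counts over an ATPase sum near 0 (0.017), so it is not separate support. The pair was not among those planned. On deposited FPKM, Psme4 stood at 13.6% of the ATPase sum in flox/flox and 15.0% in scKO. Psme1 and Psme2, which form the interferon-induced PA28 of the cytoplasm and lie close together on chr14 (55578123-55581529 and 55587441-55591113), had 252 and 250 counts and 52 and 53 counts. Neither interval excluded 0 (0.040, -0.22 to 0.30, and 0.078, -0.50 to 0.66). Psme3, the nuclear PA28γ, had 741 and 771 counts (0.11, -0.039 to 0.26). The 4 activator genes summed to 5678 and 6028 counts (0.14, 0.085 to 0.19), most of them from Psme4.

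Psme2 has a near-identical copy in the count table, and how reads were divided between them was not tested. Psme2b, a protein-coding gene 99.4% identical over 794 of 962 bases, had 107 (flox/flox) and 118 (scKO) counts, more than Psme2 itself in either library. With Psme2b left out, PA28 (Psme1 and Psme2) over the ATPases had a log2 ratio between genotypes of 0.030 (-0.21 to 0.27), and with it added 0.069 (-0.14 to 0.27). On deposited FPKM in flox/flox the level of PA28 relative to the ATPases went from 1.53% to 4.97%, while its counts went only from 304 to 411. That level depends on length, since FPKM divided Psme1 by 5949 and Psme2 by 3518 bases. Their principal transcripts have 1112 and 962 bases. The intervals of both ratios between genotypes included 0.

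PI31, encoded by Psmf1 and named for inhibiting the core in the test tube, was lower in scKO, with 225 and 176 counts (-0.30, -0.60 to -0.012). The upper bound passed 0 when the libraries were scaled by total counts.

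**Figure D4:**
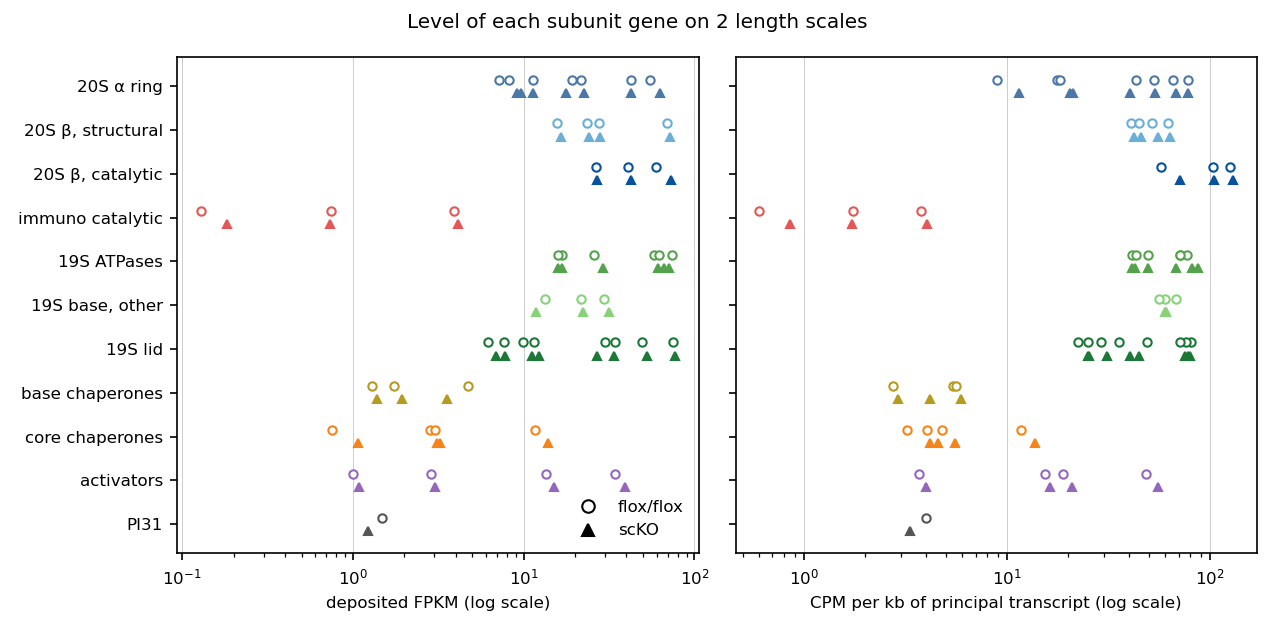
Level of each subunit gene in flox/flox (open circles) and scKO (triangles) by role, on deposited FPKM (left, log scale) and on CPM per kb of the principal GENCODE transcript (right, log scale); each point is 1 gene in 1 library. The quartiles of the constitutive genes lie closer together on the right, though their full range is not narrower there. The immuno catalytic, base chaperone and PI31 genes lie below all of the constitutive genes on both scales.

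Levels between genes depended on the length that divides the counts. On deposited FPKM, the 31 constitutive genes ran from 6.17 (Psmd11) to 75 (Psmd7) in flox/flox, with a median of 25.9, and from 6.85 to 77.0 in scKO, with a median of 27. The length behind those FPKM was 0.324 to 5.35 times the principal transcript of the gene in GENCODE M21 (median 2.26 over 46 genes), and for 28 of 46 it was the summed length of all distinct annotated exons to within 1%. Psma2 shows the effect: its FPKM of 54.6 in flox/flox is the highest of the α ring, while its CPM per kb of principal transcript, 17.7, is the second lowest. On CPM per kb of principal transcript, a scale chosen after the values were seen, the constitutive genes ran from 8.93 (Psma5) to 125 (Psmb7) in flox/flox and from 11.4 to 130 in scKO. The upper quartile was 1.73 times the lower on that scale in flox/flox and 1.79 times in scKO, against 3.16 and 3.37 times on FPKM. Genes whose products occur in equal number in the particle were thus closer in level on 1 scale than on the other.

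The genes at both ends of the order were shared between genotypes. On CPM per kb of principal transcript Psmb7 and Psmb6 (103 in flox/flox, 105 in scKO) were the highest of the constitutive genes, and Psma5 and Psma2 the lowest, in both libraries. The immuno catalytic genes stood at 0.603 (Psmb9), 1.75 (Psmb8) and 3.78 (Psmb10) in flox/flox on that scale, below every constitutive gene, and at 0.855, 1.73 and 4.02 in scKO. Psme4 stood at 48.5 and 55.1, within the constitutive range, while Psme1 (15.4 and 16.2) lay below all but Psma5, and Psme2 (3.67 and 3.98) below all.

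Calls were also counted apart for genes that share sequence. In all, 17 of the 48 genes have a near copy of at least 95% identity, at least 5% of exon bases in common with another gene, or both. Their median log2 ratio was 0.078 with 4 intervals above 0 and 1 below, beside -0.00041 with 4 above and 4 below for the 29 other genes with enough counts. Among these 29 the genes above 0 were Psma2, whose closest copy falls just under that identity at 94.8%, Psmc5, Psmd3 and Psme4, and those below were Psmd4, Psmd10, Psmd12 and Psmf1. Copies with at least 90% identity numbered 32, of which 8 are rows of the count table and 4 had more than 10 counts. Over all genes with at least 20 counts, 12.8% lay above 0 and 12.3% below. The part of shared sequence in the subunit ratios was not tested.

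Partners of the proteasome were taken from lists of genes that bind it, regulate it or feed it. The calls in these lists are a description, beside 12.8% of all genes above 0 and 12.3% below. Of 12 associated factors found (Paaf1 was not), 1 had an interval above 0, Sem1, and 1 below, the ubiquitin-binding factor Zfand5 (4238 and 3707 counts, -0.14, -0.21 to -0.078). The deubiquitinase Usp14 had 553 and 529 counts (-0.013, -0.19 to 0.16). The list had a median of 0.0071, near that of the subunits.

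The regulators of subunit transcription showed 2 intervals above 0 of 11 genes with enough counts, none below, and a median of -0.022. Nfe2l1 had 2716 (flox/flox) and 2702 (scKO) counts (0.044, -0.034 to 0.12). Ddi2, the protease that frees NRF1, had 892 and 836 (-0.042, -0.18 to 0.095), and Ngly1, the glycanase that acts on it, had 689 and 642 (-0.051, -0.21 to 0.11). The 3 genes of this NRF1 route therefore had intervals that included 0. Nfe2l2, the related factor of the oxidative stress response, had 850 and 909 counts (0.15, 0.011 to 0.28), and Nfyc, a subunit of NF-Y, had 248 and 318 (0.41, 0.17 to 0.66).

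Ubiquitin reaches substrates through genes that supply it and genes that activate it. Ubb, a polyubiquitin gene, had 3212 (flox/flox) and 3263 (scKO) counts (0.074, 0.0032 to 0.14). Uba1, the main activating enzyme, had 1935 and 1911 counts (0.033, -0.059 to 0.13). Of the 6 genes reported from this list, 1, Ubb, had an interval above 0 and none below, and their ratios ran from 0.021 to 0.28 with a median of 0.082.

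Among 11 shuttles and unfoldase genes, 2 intervals lay above 0 and 1 below (median 0.027). The ubiquilins, which carry ubiquitinated proteins to the proteasome, went to both sides: Ubqln1 had 829 and 911 counts (0.19, 0.050 to 0.32) and Ubqln2 212 and 154 (-0.41, -0.72 to -0.10). Nploc4, an adaptor of the unfoldase VCP, had 1053 and 1161 counts (0.19, 0.070 to 0.31). The 8 class I presentation genes, which use the peptides the proteasome makes, had 1 above, B2m (868 and 1000 counts, 0.26, 0.12 to 0.39), and 1 below, the interferon factor Irf1 (84 and 57 counts, -0.50, -1.02 to -0.0059). Their median was 0.033, and none of the genes reported from these 5 lists was at least 2-fold apart.

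**Figure D5:**
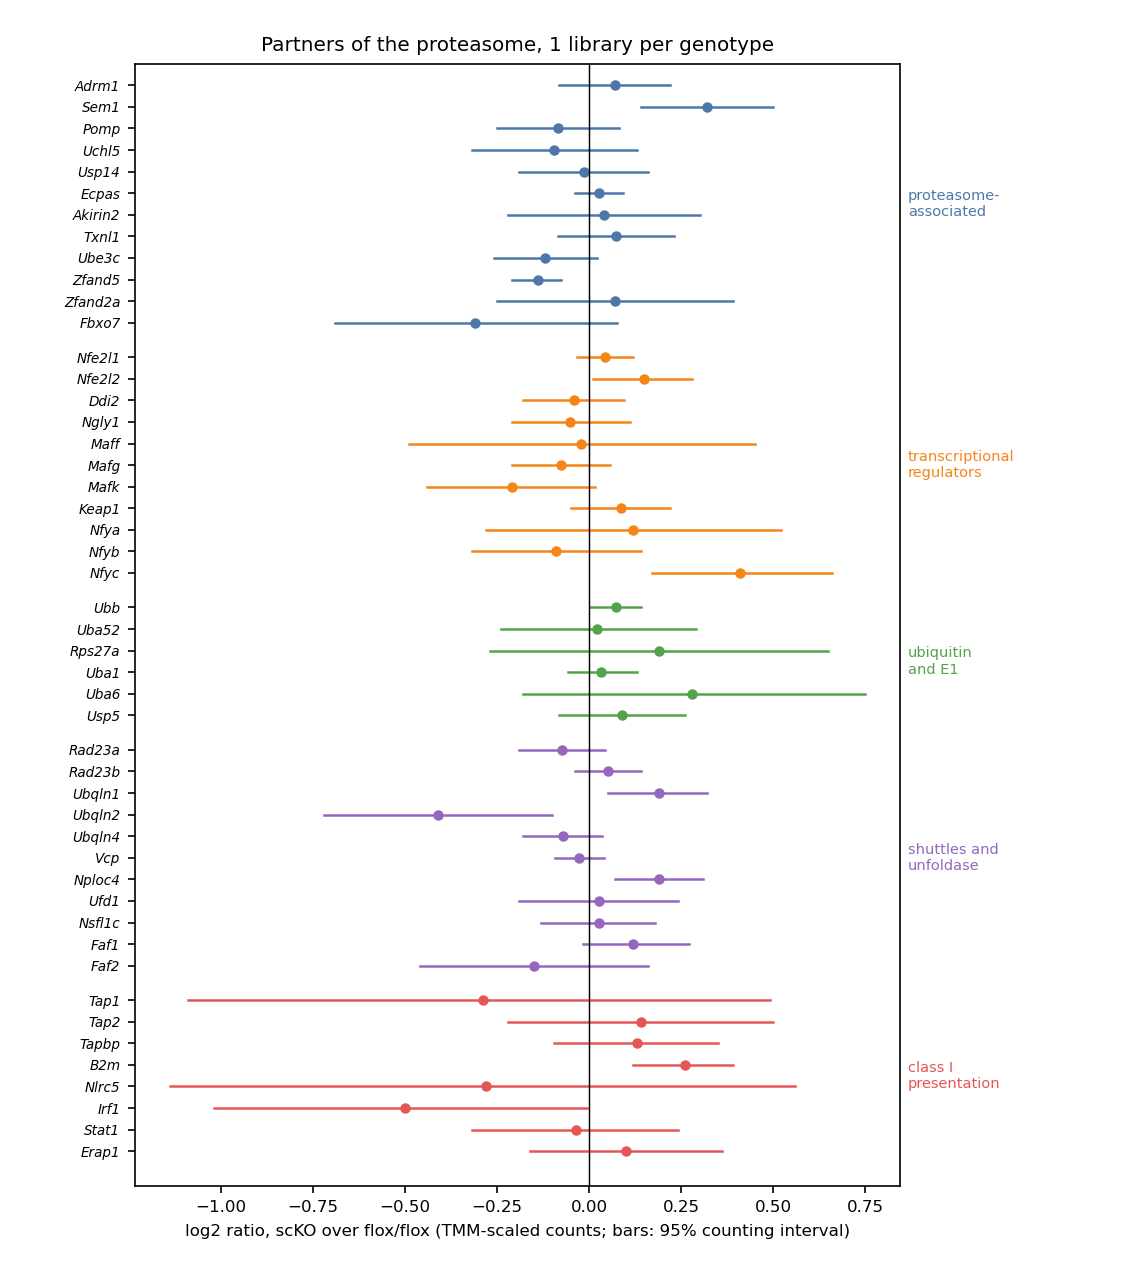
Log2 ratio of scKO over flox/flox (horizontal axis, TMM-scaled counts) of the 48 partner genes reported with at least 20 summed counts, coloured by list; bars are 95% counting intervals and each genotype is 1 library. Irf1 (-0.50), Ubqln2 (-0.41), Nfyc (0.41) and Sem1 (0.32) lie away from 0. The 3 genes of the NRF1 route (Nfe2l1, Ddi2, Ngly1) have bars that cross 0.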

How the data were processed

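The deposited table of counts holds whole-number gene counts made by the authors, and the deposited FPKM columns, per the file headers 1 per library, equal counts divided by a gene length and the total count. CASAVA, HISAT2 2.0.4, StringTie 1.3.0 and the build GRCm38 are named, without roles, in the submitters' processing notes. Counting options, strand setting and treatment of reads with several matches are not given in the sources used here.

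Symbols were found for 34267 of 34745 identifiers. Libraries were scaled with TMM (edgeR 4.0.16, R 4.3.3). Log2 ratios used a prior count of 0.5, and intervals are exact conditional binomial (Clopper-Pearson) 95% intervals of the counts, which cover counting error only, as do the limits of 3 counts for a gene at 0. Genes with a summed count of at least 20 were used. A 2-fold difference needed a ratio of at least 2 or at most 0.5 and an interval that excluded no change. The script was tested on simulated counts. Alternatives were DESeq2 1.42.0 size factors, total counts with and without mitochondrially encoded genes, FPKM with 0.1 added, a prior count of 5, and minimums of 100 or no count. Copies were found with BLAST 2.17.0 of principal transcripts against GENCODE M21 over at least 200 bases.

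The subunit genes and all gene lists were chosen with earlier results of these data known. Every subunit gene could be named. Of the partner lists, Nfe2l1, Nfe2l2, Ddi2, Ngly1, Pomp, Adrm1 and Usp14 were always named, with up to 4 others per list by absolute ratio. Ubb and Uba1 were named outside that rule, after their values were seen. Protein sequences were not analysed here. Of the ubiquitin list, 1 gene is not reported here, and its list's count and median leave it out.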

Additional observations from a re-analysis of the deposited data

How the results depend on the processing

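No paired analysis was possible because each genotype has 1 library, and for the same reason no library could be left out. Of 230 single-gene ratios under the 5 alternatives to scaling, unit and prior count, all 230 moved by less than their counting interval. A change of scaling moves every gene by nearly the same small amount, so this says little about single genes. Calls did change for Psma5 (DESeq2 size factors) and for Psmc1, Psmf1, Psmd2 and Psmd11 (total counts). The median over all subunit genes, 0.026, became 0.064 with total-count scaling, 0.064 with total counts that left out mitochondrially encoded genes, 0.063 on FPKM and -0.00041 without the genes that share sequence. Scaling by total counts moved the median of all genes from 0.0021 to 0.040. The number of genes with an interval below 0 fell from 5 to 3 under both total-count scalings, and the number above 0 went from 8 to 4 without sequence sharers, where fewer genes entered. With DESeq2 size factors 7 lay above and 5 below. The share of counts taken by subunit genes was 0.408% and 0.427% when mitochondrially encoded genes were left out. The removal of sequence sharers and the principal transcript length were chosen after seeing the data. Depth limits genes with few counts, such as Psmb9, with 12 and 16 counts and an interval from -0.71 to 1.68. The comparison of protein sequences was not run.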
